A study of Homo sapiens with 9 samples.

Results

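The genes described here are 34 genes of the ATF4 response and of amino acid supply, followed in U-2 OS cells whose SUGP1 gene was cut. They were taken by symbol from a named list, and all 34 were found among the 38146 gene entries kept from the count table. All 34 also passed the filter on low counts that left 21071 genes to be tested. They comprise 8 transcription factors of the response, 7 stress effectors and feedback genes, 11 enzymes of serine, one-carbon, proline, asparagine and related metabolism, and 8 genes for amino acid carriers and tRNA export.

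U-2 OS is a human bone osteosarcoma line. Every culture received Cas9 together with a single synthetic guide, so the controls also carried Cas9: NTC is a non-targeting guide, crXCR1 cuts XCR1, a gene of dendritic cells that serves as a control for DNA breakage, and crSUGP1 cuts SUGP1, which encodes a predicted RNA-binding protein. There was 1 library of polyA RNA per guide in each of 3 independent experiments, 9 libraries in all. Each condition rests on 1 guide and on a pool of edited cells, not on a clone. The stated time of 72 h between guide transfection and fixation belongs to cells in plates, while the RNA came from flasks. The deposited totals were 68712738 to 107952835 read pairs per library, and mitochondrial transcripts made up 4.03 to 5.01% of them. SUGP1 itself was at 6.52 to 7.88 CPM (TMM-scaled counts divided by library size) in the crSUGP1 libraries and at 28.2 to 31.6 CPM in the 6 controls, which checks the labels. Of 8 markers of the osteoblast lineage, 5 exceeded 1 CPM in every library, whereas SP7 and COL1A2 stayed below 1 CPM. Of 12 markers of other cell types, 4 exceeded 1 CPM in every library (KRT8, ITGAX, EPCAM and CDH5), and CD3E had no reads.

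ATF4 is the main transcription factor of the integrated stress response, in which kinases sensing amino acid shortage, unfolded protein, double-stranded RNA or lack of heme phosphorylate eIF2. General translation then slows, while translation of ATF4 mRNA increases, so ATF4 activity is set in large part at a step that RNA counts do not measure. With C/EBP partners, ATF4 binds composite C/EBP-ATF elements and induces genes for amino acid synthesis, uptake and tRNA charging, together with feedback genes such as TRIB3. Levels in a bulk culture cannot tell fewer responding cells from less RNA per cell.

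The sequences below show where the letters of such an element stand in the promoters of some members. The letters searched were TGATGNAA on the sense strand, or the same element on the other strand, TTNCATCA, in RefSeq promoter windows from 250 bases before to 50 after each start (GRCh38.p14), of which a gene may have several. Of the 34 genes, 26 had windows in the table. An element was found in 9 of their 43 windows (20.9%), against 1270 of 35116 windows of all genes (3.62%). By gene, 9 of 26 members (34.6%) and 1217 of 27305 genes (4.46%) had a match. A match is a description of letters and not a measurement of binding. The list was chosen as genes of the ATF4 response, so its share is not an independent test of a link to ATF4. In 6 members it lay entirely before the start, and each is printed in the direction of its gene with the element in capitals.
ASNS, chr7:97872453-97872492, minus strand, element 68 bases before the start: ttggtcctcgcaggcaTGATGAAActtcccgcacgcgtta
ATF3, chr1:212565200-212565239, plus strand, 191 bases before: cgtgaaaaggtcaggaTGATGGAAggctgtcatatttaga
CEBPG, chr19:33374055-33374094, plus strand, 42 bases before: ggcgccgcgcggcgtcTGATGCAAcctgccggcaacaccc
CHAC1, chr15:40953246-40953285, plus strand, 209 bases before: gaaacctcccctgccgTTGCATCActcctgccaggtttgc
JDP2, chr14:75427990-75428021, plus strand, 16 bases before: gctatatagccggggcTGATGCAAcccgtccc
SLC1A5, chr19:46784888-46784927, minus strand, 97 bases before: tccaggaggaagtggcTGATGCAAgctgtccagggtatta
In SLC1A4 the element spanned the start, and in SLC3A2 and SLC7A1 it lay after it. The windows of PHGDH, PSAT1, SESN2, DDIT4 and ATF4, among others, held no such letters.

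Against NTC, 31 of the 34 genes had a fold change above 0 in crSUGP1 cells, with a median log2 fold change of 0.19, whereas 49% of all genes tested lay above 0. Against crXCR1, 32 of 34 lay above 0 with a median of 0.20, against 49.2% of all genes. These medians moved with single libraries: against NTC to 0.107 without NTC of experiment 3, 0.121 without crSUGP1 of experiment 1 and 0.283 without crSUGP1 of experiment 3, and against crXCR1 to 0.322 without crSUGP1 of experiment 3. Most of these differences were small, and a single member passed the test against both controls, in the opposite direction: PHGDH fell. A gene was called when edgeR's quasi-likelihood test gave an adjusted p (Benjamini-Hochberg) up to 0.05 and its log2 fold change reached 0.5 in either direction. By this rule 0 members were called higher against NTC, where 0.327% of all genes were, and 1 was called lower (background 0.456%). Against crXCR1, 0 members were called higher (background 0.19%) and 1 lower (background 0.584%). At an unadjusted p under 0.05, 11 members were higher against NTC, where 6.06% of all genes were, and 10 against crXCR1, where 7.13% were, by the same test. The 2 comparisons share the crSUGP1 libraries. The list was chosen with earlier results of these data known, the fall of PHGDH among them. Its counts and p-values between guides are therefore a description and not an independent test.

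Part of the spread within a guide was shared by the 3 libraries of an experiment. With the experiment as a block in the fit, 4 members were called higher against NTC (CHAC1, DDIT4, SESN2 and SLC7A11), where 1% of all genes were, and PHGDH was again the 1 called lower (background 1.85%). Against crXCR1 the blocked fit called 3 higher (CHAC1, SLC7A11 and STC2, background 0.897%) and 1 lower (background 3%). DESeq2 without the block called 2 members higher against NTC (DDIT4 and SESN2, background 0.451%) and SLC7A11 higher against crXCR1 (background 0.299%), and PHGDH lower in both (backgrounds 0.702% and 0.987%). When the fold threshold was dropped from the blocked fit, 18 members were higher and 2 lower than in NTC (backgrounds 6.72% and 8.96%), and 19 were higher and 2 lower than in crXCR1 (9.99% and 11.7%). ATF5 and PHGDH were the 2 lower members in both.

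**Figure D1:**
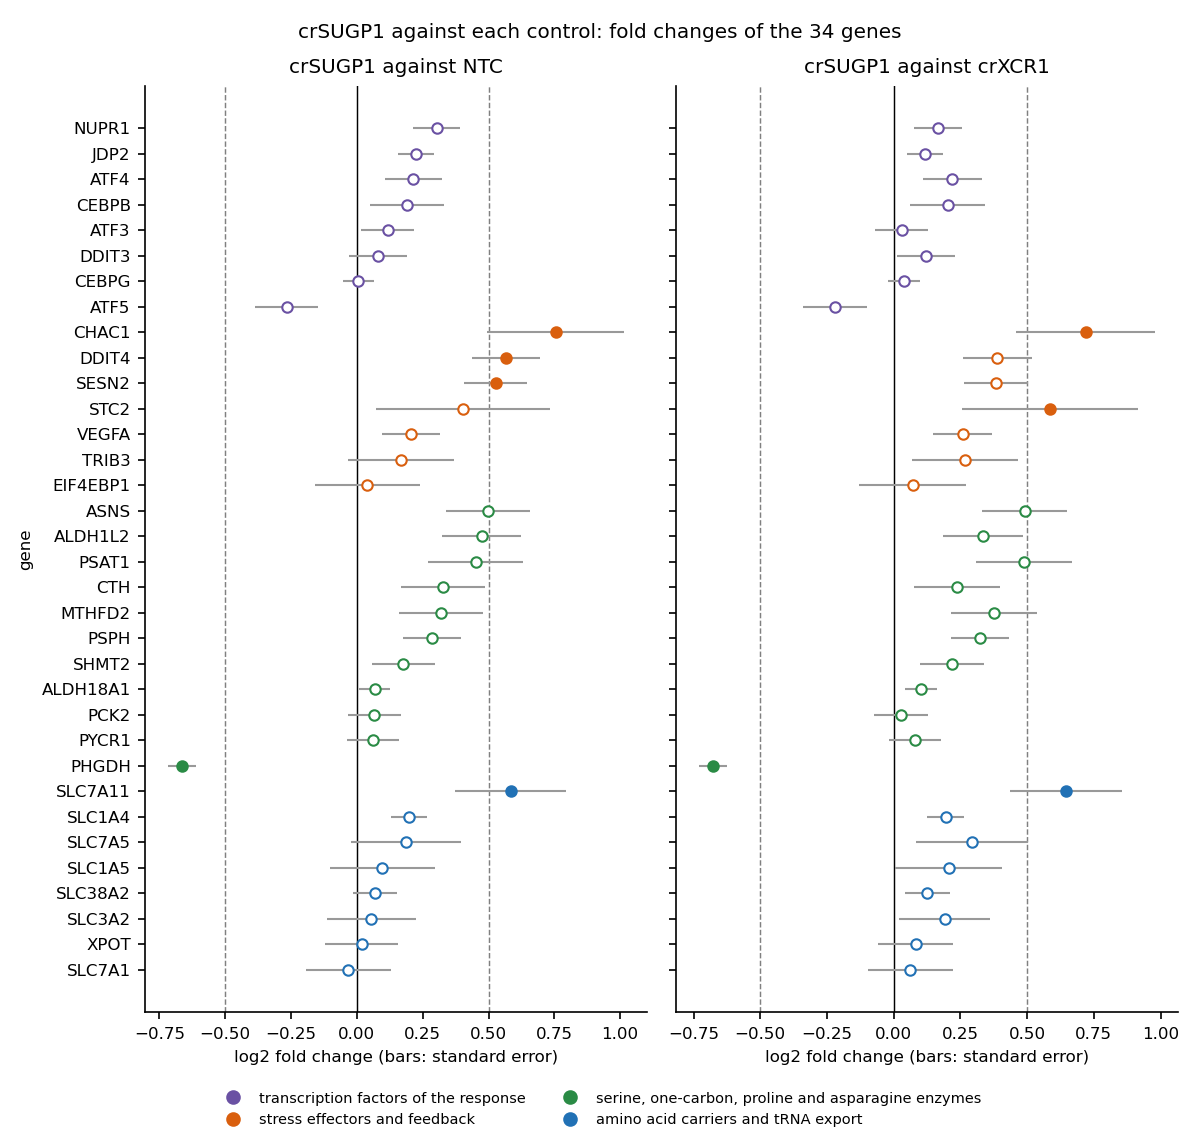
Log2 fold change of each of the 34 genes in crSUGP1 against NTC (left) and against crXCR1 (right), from edgeR without a block, with bars of 1 standard error. Genes are grouped by role, dashed lines mark 0.5 in either direction, and filled points were called in the fit with the experiment as a block. PHGDH stands alone below -0.5 with short bars, while most other members lie slightly above 0.

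The serine pathway split. PHGDH, on chromosome 1 from 119648411 to 119744218, encodes the dehydrogenase that starts serine synthesis from glycolysis. It was at 186, 182 and 187 CPM in the NTC libraries of experiments 1 to 3, at 185, 185 and 190 CPM in the crXCR1 libraries, and at 119, 120 and 110 CPM in the crSUGP1 libraries. The 6 controls lay within a narrow range, and all 3 crSUGP1 libraries were far below it. PHGDH fell by 0.66 ± 0.053 (SE) on the log2 scale against NTC, a change of -36.9% (edgeR's quasi-likelihood test, adjusted p = 0.00035). The change against crXCR1 was -0.68 ± 0.053, or -37.5% (adjusted p = 0.000358). Within experiments 1, 2 and 3 the difference from NTC was -0.64, -0.60 and -0.76. Fits without experiment 1 or without experiment 2 gave adjusted p of 0.12 and 0.112 against NTC, with fold changes of -0.67 and -0.70, and 0.131 and 0.106 against crXCR1. Those fits called almost no gene at all (2 and 2 against NTC, 1 and 2 against crXCR1). No gene in the table overlaps PHGDH on the opposite strand.

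The enzymes of the following serine steps did not share this direction. PSAT1, the aminotransferase after PHGDH, was at 45.3, 50.1 and 35.5 CPM in NTC, at 47.5, 45.3 and 34.9 CPM in crXCR1 and at 63.3, 68.8 and 46.7 CPM in crSUGP1. Its highest levels were those of crSUGP1 in experiments 1 and 2, and its crSUGP1 library of experiment 3 overlapped the controls. The log2 difference was 0.45 ± 0.18 against NTC (adjusted p = 0.30) and 0.49 ± 0.18 against crXCR1 (adjusted p = 0.219, edgeR). With the block these became 0.45 ± 0.052 (adjusted p = 3.88e-05) and 0.48 ± 0.052 (adjusted p = 2.08e-05), both under the fold threshold. PSPH, the phosphatase that completes serine synthesis, was at 20.5, 20.3 and 18.2 CPM in NTC, at 20.0, 20.3 and 17.2 CPM in crXCR1 and at 24.7, 26.9 and 20.4 CPM in crSUGP1. The PSPH level of crSUGP1 exceeded that of both controls in each experiment, by 0.29 ± 0.11 against NTC and 0.32 ± 0.11 against crXCR1 on the log2 scale, and neither passed the test (adjusted p = 0.298 and 0.202, edgeR).

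ASNS, which makes asparagine from aspartate and glutamine, was at 101, 99.5 and 76.7 CPM in NTC, at 105, 98.2 and 75.1 CPM in crXCR1 and at 135, 151 and 106 CPM in crSUGP1. All 3 crSUGP1 libraries exceeded all 6 controls. The log2 difference of 0.50 ± 0.16 against NTC and 0.49 ± 0.16 against crXCR1 had adjusted p of 0.218 and 0.192 (edgeR). With the block the estimates stayed just below the fold threshold, at 0.496 and 0.49, with adjusted p of 1.25e-05 and 1.41e-05. Of the mitochondrial folate enzymes, MTHFD2 had log2 differences of 0.32 ± 0.16 against NTC and 0.38 ± 0.16 against crXCR1, ALDH1L2 0.47 ± 0.15 and 0.33 ± 0.15, and SHMT2 0.18 ± 0.12 and 0.22 ± 0.12. None of these passed. CTH, which releases cysteine from cystathionine, differed from NTC by 0.33 ± 0.16, the proline enzymes ALDH18A1 and PYCR1 by 0.07 ± 0.060 and 0.06 ± 0.098, and PCK2, a mitochondrial carboxykinase, by 0.07 ± 0.10. In all, 10 of the 11 enzymes lay above 0 against either control, and PHGDH was the exception.

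The 7 stress effectors and feedback genes all lay above 0 against both controls, with medians of 0.40 against NTC and 0.38 against crXCR1. CHAC1, which degrades glutathione, was at 9.52, 8.07 and 6.55 CPM in NTC, at 9.78, 8.90 and 6.14 CPM in crXCR1 and at 15.1, 17.1 and 8.52 CPM in crSUGP1. The first 2 crSUGP1 libraries were well above every control and that of experiment 3 was not. CHAC1 had the largest positive estimate among the members, 0.76 ± 0.26 against NTC and 0.72 ± 0.26 against crXCR1, which did not pass without the block (adjusted p = 0.244 and 0.224, edgeR). The blocked fit called it against both, at 0.72 ± 0.096 (adjusted p = 0.000136) and 0.70 ± 0.095 (adjusted p = 0.000154).

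SESN2, a leucine-sensing inhibitor of mTORC1, was at 58.6, 55.3 and 47.8 CPM in NTC, at 64.9, 59.0 and 54.7 CPM in crXCR1 and at 82.7, 85.8 and 64.4 CPM in crSUGP1. DDIT4, also an mTORC1 inhibitor, was at 45.7, 36.5 and 50.0 CPM in NTC, at 49.9, 43.1 and 56.6 CPM in crXCR1 and at 68.8, 66.7 and 60.4 CPM in crSUGP1. For both genes the crSUGP1 libraries did not overlap NTC, and in each experiment crXCR1 lay between the other guides. SESN2 differed from NTC by 0.53 ± 0.12 on the log2 scale (adjusted p = 0.0767, edgeR) and with the block by 0.52 ± 0.055 (adjusted p = 1.35e-05). Without crSUGP1 of experiment 3, SESN2 was called with no block, at 0.64 (adjusted p = 0.0179). DDIT4 differed from NTC by 0.57 ± 0.13 (adjusted p = 0.0763, edgeR) and with the block by 0.58 ± 0.082 (adjusted p = 0.000248). Against crXCR1 the estimates were 0.38 ± 0.12 for SESN2 and 0.39 ± 0.13 for DDIT4, and neither was called by edgeR with or without the block over all 9 libraries.

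SESN2 and DDIT4 are also known targets of p53, and genes of that response moved in the same libraries. Of 21 tested genes in a separate list of p53 targets, 9 rose against NTC and 1, PURPL, against crXCR1 by edgeR, where 0.327% and 0.19% of all genes were called higher. In crXCR1 against NTC, 20 of 21 lay above 0 with a median of 0.23, where 49.7% of all genes lay above 0. At an unadjusted p under 0.05, 10 of the 21 were higher there by edgeR (all genes 0.736%). PURPL, a p53-induced noncoding RNA, rose by 0.78 ± 0.078 against NTC and 0.51 ± 0.077 against crXCR1. SESN1, a relative of SESN2, rose by 0.65 ± 0.072 against NTC, and BTG2, an antiproliferative gene, by 0.54 ± 0.060. The part of the p53 response in the levels of SESN2 and DDIT4 was not tested. The antisense gene DDIT4-AS1, with 41.4% as many NTC counts as DDIT4, differed from NTC by 0.61 ± 0.13, close to DDIT4 itself. The strand of counting is not stated and overlap of their exons was not checked, so whether they share reads is not known.

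STC2, a secreted glycoprotein, was the least abundant member, at 1.97, 1.62 and 0.847 CPM in NTC, at 1.57, 1.41 and 0.950 CPM in crXCR1 and at 2.22, 2.34 and 1.28 CPM in crSUGP1. Its groups overlapped, since both controls of experiments 1 and 2 exceeded crSUGP1 of experiment 3. STC2 was called against crXCR1 with the block (0.55 ± 0.12, adjusted p = 0.005, edgeR), and against NTC its blocked estimate was 0.40 ± 0.12 (adjusted p = 0.0331). That value rested on single libraries: within experiments 1, 2 and 3 it was 0.17, 0.52 and 0.58, and with no block it was 0.68 without NTC of experiment 1, 0.12 without NTC of experiment 3, 0.25 without crSUGP1 of experiment 2 and 0.62 without crSUGP1 of experiment 3, against 0.40 ± 0.33 with all. Against crXCR1 it was 0.58 ± 0.33 with no block, and 0.39 without crXCR1 of experiment 3. TRIB3, a pseudokinase that restrains ATF4, was at 37.4, 36.3 and 27.1 CPM in NTC, at 37.1, 31.4 and 25.6 CPM in crXCR1 and at 43.3, 42.9 and 27.0 CPM in crSUGP1. Its log2 difference of 0.17 ± 0.20 against NTC and 0.27 ± 0.20 against crXCR1 did not pass. EIF4EBP1, a repressor of cap-dependent translation, was at 154, 143 and 113 CPM in NTC, at 153, 137 and 111 CPM in crXCR1 and at 162, 162 and 97.4 CPM in crSUGP1. Its difference from NTC was 0.04 ± 0.20, and that of VEGFA, an angiogenic growth factor, 0.21 ± 0.11, and neither passed.

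Among the 8 genes of amino acid carriers and tRNA export, SLC7A11 had the largest difference. SLC7A11 encodes the cystine and glutamate exchanger, and was at 33.7, 36.2 and 22.8 CPM in NTC, at 33.4, 32.8 and 22.8 CPM in crXCR1 and at 50.0, 53.2 and 35.6 CPM in crSUGP1. Its controls were lower in experiment 3 by about as much as crSUGP1 was, so that the difference from NTC was 0.57, 0.55 and 0.64 within experiments 1, 2 and 3. Without the block SLC7A11 did not pass (0.58 ± 0.21 against NTC, adjusted p = 0.271, and 0.64 ± 0.21 against crXCR1, adjusted p = 0.191, edgeR). With it the differences were 0.59 ± 0.050 (adjusted p = 1.32e-06) and 0.64 ± 0.050 (adjusted p = 4.95e-07).

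Carriers of large neutral and small neutral amino acids differed less between guides than SLC7A11 did, and none was called. SLC7A5, which imports leucine in a pair with SLC3A2, was at 820, 762 and 559 CPM in NTC, at 772, 688 and 529 CPM in crXCR1 and at 957, 902 and 576 CPM in crSUGP1. SLC1A5, a glutamine carrier, was at 348, 316 and 238 CPM in NTC, at 324, 291 and 222 CPM in crXCR1 and at 368, 356 and 240 CPM in crSUGP1. Both were lowest in experiment 3 with every guide, and their log2 differences from NTC, 0.19 ± 0.21 and 0.10 ± 0.20, did not pass. The others of this group differed from NTC by 0.20 ± 0.070 (SLC1A4, a carrier of alanine, serine and cysteine), 0.07 ± 0.084 (SLC38A2, a carrier of small neutral amino acids), 0.055 ± 0.17 (SLC3A2), 0.02 ± 0.14 (XPOT, the tRNA exporter) and -0.03 ± 0.16 (SLC7A1, an arginine carrier). None of these passed. Against crXCR1, SLC7A5 was higher by 0.31, 0.39 and 0.12 within experiments 1, 2 and 3, and SLC1A5 by 0.19, 0.29 and 0.11. With the block, SLC7A5 and SLC1A4 had an adjusted p up to 0.05 against both controls (edgeR), and SLC1A5 and SLC3A2 against crXCR1. All of these stayed under the fold threshold. Within experiments 1, 2 and 3 the log2 difference of crXCR1 from NTC was -0.09, -0.15 and -0.08 for SLC7A5. It was -0.11, -0.12 and -0.10 for SLC1A5 and -0.14, -0.15 and -0.11 for SLC3A2. Part of their difference from crXCR1 is thus the lower level of that control. For SLC1A4 it was -0.08, 0.07 and 0.03.

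ATF4 mRNA, from a gene on chromosome 22 from 39519672 to 39522683, was at 424, 437 and 363 CPM in NTC, at 439, 418 and 364 CPM in crXCR1 and at 507, 501 and 412 CPM in crSUGP1. The crSUGP1 library was the highest in each experiment, while that of experiment 3 lay within the range of the controls. Its log2 difference was 0.21 ± 0.11 against NTC and 0.22 ± 0.11 against crXCR1, not passing (adjusted p = 0.445 and 0.359, edgeR), and with the block 0.21 ± 0.045 and 0.22 ± 0.045 with adjusted p of 0.00551 and 0.00368, under the fold threshold. CEBPB, a partner of ATF4 and together with SLC7A5 the member nearest to the median of the list, was at 146, 110 and 142 CPM in NTC, at 137, 123 and 135 CPM in crXCR1 and at 170, 161 and 124 CPM in crSUGP1. CEBPB was thus higher than NTC in experiments 1 and 2 and lower in experiment 3.

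ATF5, a relative of ATF4, was the transcription factor that went the other way. It was at 87.2, 87.8 and 74.3 CPM in NTC, at 81.0, 81.4 and 79.0 CPM in crXCR1 and at 79.5, 71.9 and 55.7 CPM in crSUGP1. The ATF5 level was lower in crSUGP1 than in either control within each experiment, with log2 differences from NTC of -0.13, -0.29 and -0.41, and the whole difference of -0.27 ± 0.12 did not pass (adjusted p = 0.381, edgeR). NUP62, which overlaps ATF5 on the opposite strand with 238% of its NTC counts, differed by 0.09 ± 0.083. The remaining factors differed from NTC by 0.30 ± 0.089 (NUPR1, a stress-induced chromatin protein), 0.22 ± 0.067 (JDP2, a repressor of AP-1), 0.12 ± 0.10 (ATF3, an early stress factor), 0.08 ± 0.11 (DDIT3, which encodes CHOP) and 0.01 ± 0.060 (CEBPG, an ATF4 partner). None passed. DDIT3 overlaps MARS1 and MBD6, both with several times its counts.

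Counted by library, 7 members had all 3 crSUGP1 libraries above all 3 NTC libraries (ALDH1L2, ASNS, DDIT4, JDP2, NUPR1, SESN2 and SLC1A4), against 8.51% of all genes, and PHGDH was the 1 member below (8.88%). Against crXCR1 there were 6 above (ALDH18A1, ASNS, DDIT4, PSPH, SLC1A4 and SLC7A11, background 12.2%) and again 1 below (12.2%). Within experiments, 21 members were higher than NTC in all 3, where 22.9% of all genes were, and 2 were lower (ATF5 and PHGDH, background 24%). Against crXCR1 the counts were 24 higher (background 26.5%) and 2 lower (background 27.1%). The median difference from NTC was 0.19, 0.24 and 0.14 in experiments 1, 2 and 3, and from crXCR1 0.19, 0.29 and 0.12, with the median of all genes between -0.01 and 0.

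Between the 2 control guides the differences of these genes were small in size. By edgeR 0 members were called between crXCR1 and NTC, as were 0% of all genes, and with the block 0 members and 0.00475% of all genes. At an unadjusted p under 0.05 there were 0 members by edgeR and by DESeq2 (1.34% and 1.06% of all genes) and 5 by edgeR with the block (6.61% of all genes). Fold changes ran from -0.18 to 0.18 with a median of -0.03, and 12 of the 34 lay above 0. No member had 3 crXCR1 libraries all above or all below NTC (backgrounds 2.71% and 2.01%), while 8 were higher and 10 lower within all 3 experiments (backgrounds 15.4% and 14.2%).

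**Figure D2:**
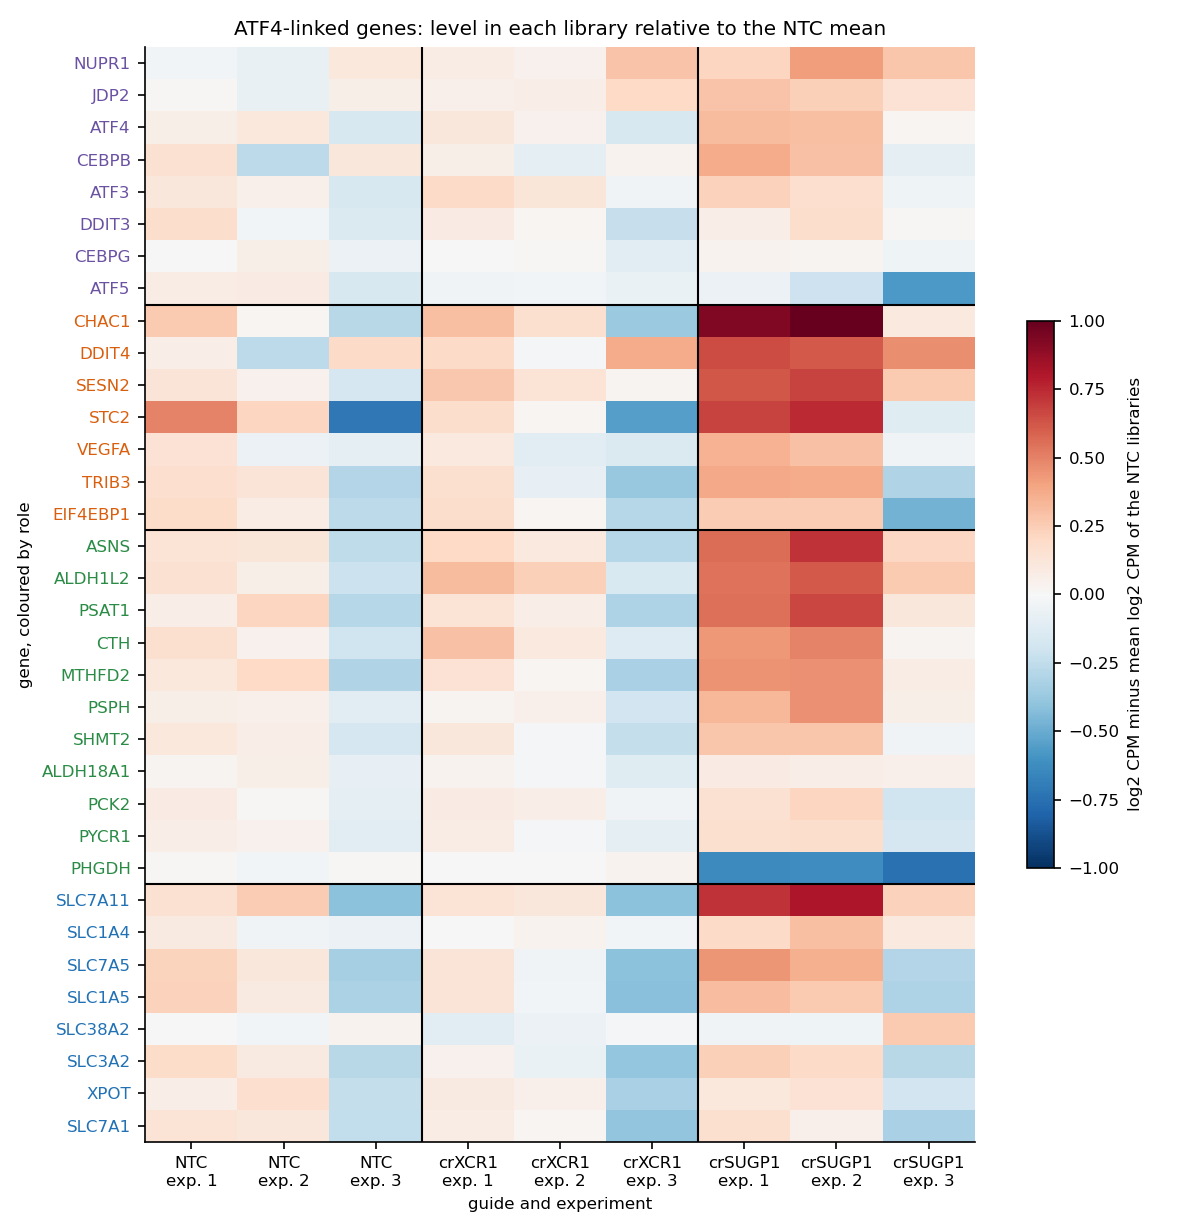
Level of each gene (rows, grouped and coloured by role) in each of the 9 libraries, as log2 CPM minus the mean log2 CPM of the NTC libraries, from -1 (blue) to 1 (red). The PHGDH row is blue in all 3 crSUGP1 libraries, and the experiment 3 libraries are bluer than the other libraries of the same guide for most genes.

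The experiments differed in these genes too. Experiment 3 was singled out, and the list chosen, with earlier results of these data known, so the contrast is a description. The 3 libraries of experiment 3 come from 1 experiment. The SE and p of this contrast therefore measure agreement across guides and not spread between experiments. In experiment 3 the members were lower with every guide: the median log2 difference from experiments 1 and 2 was -0.25 in NTC, -0.26 in crXCR1 and -0.37 in crSUGP1, with 0.00 for all genes. In the edgeR fit with guide and experiment, 30 of 34 lay below 0, with a median of -0.26. Of these, 6 members fell (CHAC1, SLC1A5, SLC7A11, SLC7A5, STC2 and TRIB3), where 3.13% of all genes were called lower, and 0 rose, where 7.46% of all genes were called higher. At an unadjusted p under 0.05, 27 members were lower and 1 was higher by edgeR (all genes 26.5% and 26.1%), and DESeq2 called 6 lower and 0 higher (all genes 2.52% and 6.05%). Without the fold threshold, 25 were lower and 1, SLC38A2, was higher (backgrounds 23.2% and 22.9%). With each guide separately, 28 were lower in experiment 3 than in both other experiments (background 25%) and 1, SLC38A2, was higher (background 23.5%). A test for any difference between the 3 experiments called 7 members, the 6 above and EIF4EBP1 (background 12.1%).

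By role, the enzymes lay below 0 in 11 of 11 cases (median -0.29) and 0 were called, the carriers and XPOT in 7 of 8 (median -0.42) with 3 called, the effectors in 6 of 7 (median -0.50) with 3 called, and the transcription factors in 6 of 8 (median -0.15) with 0 called. STC2 had the largest difference, -0.85 ± 0.11 (adjusted p = 1.71e-05, edgeR). CHAC1 followed at -0.65 ± 0.086 (adjusted p = 1.86e-05), SLC7A11 at -0.56 ± 0.044 (adjusted p = 1.44e-07) and SLC7A5 at -0.55 ± 0.047 (adjusted p = 3.52e-07). SLC1A5 fell by 0.51 ± 0.042 and TRIB3 by 0.51 ± 0.056. These last 2 and SLC7A5 were under the fold threshold when counts were scaled by library totals, which left 3 calls. Without crSUGP1 of experiment 3 the calls were also 3, as SLC7A5, SLC1A5 and TRIB3 were at -0.47, -0.46 and -0.42. ATF4 was at -0.26 ± 0.040, under the fold threshold. SLC38A2 was at 0.14 ± 0.048 (adjusted p = 0.0238), and its levels of 239, 235 and 245 CPM in NTC, 222, 230 and 238 CPM in crXCR1 and 234, 232 and 288 CPM in crSUGP1 show that the crSUGP1 library of experiment 3 stood apart.

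For PHGDH no difference between experiments passed. It was -0.02 ± 0.041 (adjusted p = 0.761), against -0.45 ± 0.046 for PSAT1 and -0.24 ± 0.050 for PSPH, both with adjusted p below the threshold of 0.05 and neither past the fold threshold. The TMM factors of the experiment 3 libraries were 1.021 to 1.035 and of the other 6 libraries 0.9748 to 1.003. The part of growth state, reagents or handling in the difference between experiments was not tested. AC008622.2, which overlaps SLC1A5 on the opposite strand with 19.7% of its counts, had a difference of -0.48 ± 0.044.

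**Figure D3:**
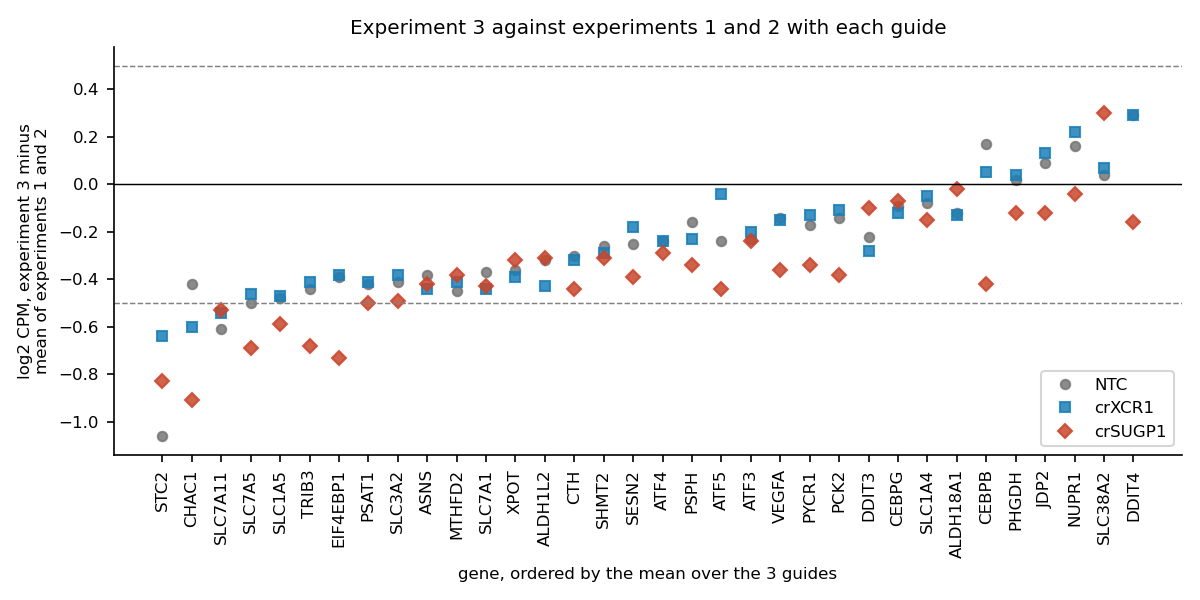
For each gene and guide, the log2 CPM of the experiment 3 library minus the mean of the libraries of experiments 1 and 2, with genes ordered by the mean over guides. Dashed lines mark 0.5 in either direction. With every guide most points lie below 0 (medians -0.25 in NTC, -0.26 in crXCR1 and -0.37 in crSUGP1), and PHGDH lies near 0.

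Without experiment 3, the differences between guides called more members. edgeR on the 6 libraries of experiments 1 and 2 called 5 higher against NTC (ASNS, CHAC1, DDIT4, SESN2 and SLC7A11, background 0.734%) and PHGDH lower (background 1.26%). Against crXCR1 it called 5 higher (CHAC1, DDIT4, PSAT1, SLC7A11 and STC2, background 0.541%) and PHGDH lower (background 1.8%). The CHAC1 estimate against NTC was 0.86 ± 0.095 there and that of DDIT4 0.71 ± 0.093. In experiment 3 alone the difference from NTC was 0.38 for CHAC1 and 0.27 for DDIT4. A difference of the guide effect between experiments cannot be tested with 1 library per guide and experiment.

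Other genes around this response were taken from further lists, whose counts at an unadjusted p under 0.05 stand beside 13.2% of all genes against NTC and 16.1% against crXCR1. These counts come from the fit without the block unless stated. Of 20 genes for eIF2 kinases, eIF2 subunits and their regulators, 0 were called by edgeR in either comparison, with 3 at an unadjusted p under 0.05 against NTC and 5 against crXCR1. EIF2AK4, the kinase that senses uncharged tRNA, had log2 differences of -0.35 ± 0.095 and -0.30 ± 0.095 and PPP1R15B, a phosphatase subunit that reverses eIF2 phosphorylation, 0.20 ± 0.059 and 0.24 ± 0.059. Of 20 cytosolic tRNA synthetases, which are themselves ATF4 targets in part, 0 were called and 0 had an unadjusted p under 0.05 in either comparison, and 14 of 20 lay above 0 in both. With the block, 7 synthetases were higher and 1 lower than in NTC at that p, and 10 higher and 0 lower than in crXCR1. For the eIF2 list these counts were 5 and 2 against NTC, and 10 and 1 against crXCR1. All genes were at 14.1% higher and 16.2% lower against NTC, and at 17.1% and 18.5% against crXCR1. The blocked fit called 0 genes of either list. In experiment 3, 19 of the 20 synthetases lay below 0, with a median of -0.28 and 0 called, and 50% of all genes lay above 0. Of the eIF2 list, 15 of 20 lay below 0 there, with a median of -0.15 and 0 called.

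Another 25 ATF4 targets that are not members had a median of 0.12 against NTC and 0.11 against crXCR1, with 0 called and 7 at an unadjusted p under 0.05 in each. SQSTM1, an autophagy receptor, had log2 differences of 0.37 ± 0.096 and 0.40 ± 0.096, TSC22D3, a glucocorticoid-induced leucine zipper gene, 0.40 ± 0.10 and 0.47 ± 0.10, and RAB32, a small GTPase, -0.38 ± 0.089 and -0.36 ± 0.089. Of 17 other one-carbon and glycine enzymes, 11 lay below 0 against NTC and 12 against crXCR1, with 0 called and 4 and 2 at an unadjusted p under 0.05. CBS, which draws homocysteine into cysteine synthesis, was at -0.43 ± 0.11 and -0.42 ± 0.11 (adjusted p = 0.118 and 0.109, edgeR). Of 15 tested genes for other amino acid synthesis, 0 were called and 3 had an unadjusted p under 0.05 in each comparison, among them OAT, ornithine aminotransferase (-0.28 ± 0.060 and -0.29 ± 0.060). Of 18 tested other amino acid carriers, 0 were called, with 1 and 3 at an unadjusted p under 0.05, and SLC7A7, a carrier of basic amino acids, was at -0.46 ± 0.16 and -0.61 ± 0.15. The blocked fit called SLC7A7 lower against crXCR1. DESeq2 without the block also called 0 genes in all of these lists in both comparisons. In experiment 3, 18 of the 25 ATF4 targets lay below 0, with a median of -0.12. In the edgeR fit of guide and experiment, 2 were called higher, SESN3 (0.96 ± 0.062) and KLHL24 (0.87 ± 0.079), and 0 lower. All genes were at 7.46% and 3.13%. Of the one-carbon and glycine enzymes 12 of 17 lay below 0 there, and GLDC was called lower. For other synthesis it was 10 of 15, with GLUL called higher, and for other carriers 8 of 18, with SLC1A1 called higher.

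A list of 16 chaperones and related genes covered the ATF6 and XBP1 arms of the unfolded protein response. Of these, 11 lay above 0 against NTC and 13 against crXCR1 (49% and 49.2% of all genes). At an unadjusted p under 0.05, 3 and 7 were higher by edgeR (all genes 6.06% and 7.13%). In each comparison 1 gene was lower at that p (all genes 7.17% and 8.95%), and it was also called (all genes 0.456% and 0.584%). This was DNAJC3, a co-chaperone that inhibits eIF2 kinases. DNAJC3 fell by 0.62 ± 0.071 against NTC (adjusted p = 0.00258) and 0.59 ± 0.071 against crXCR1 (adjusted p = 0.00352, edgeR). The level of DNAJC3 was 21.4 ± 0.783 CPM with crSUGP1, below 32.9 ± 2.07 with NTC and 32.3 ± 1.73 with crXCR1 (SD, n = 3). Of 16 NRF2 targets, which share SLC7A11 as a known target, 14 lay above 0 against either control, 0 were called, and 10 had an unadjusted p under 0.05 in each comparison (all genes 13.2% and 16.1%). Among them NQO1, a quinone reductase, differed by 0.41 ± 0.077 (adjusted p = 0.0375) and 0.44 ± 0.077 (adjusted p = 0.0294, edgeR), under the fold threshold. OSGIN1, a growth inhibitor induced by oxidative stress, was called higher against both with the block, and by DESeq2 against crXCR1. The part of NRF2 in the SLC7A11 level was not tested.

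Per length of merged exons, the members spanned a wide range of abundance in NTC. ATF4 (156 ± 15 CPM per kb, SD, n = 3), EIF4EBP1 (155 ± 24.2) and SLC7A5 (150 ± 28.7) were the most abundant and did not differ beyond their spread. SLC1A5 followed at 90.4 ± 17, PYCR1 at 75.0 ± 5.11 and CEBPB at 72.3 ± 10.8. PHGDH, at 20.1 ± 0.288 CPM per kb, stood beside PSAT1 at 19.7 ± 3.37 and ASNS at 18.8 ± 2.76, and PSPH was lower, at 7.13 ± 0.452. At the lower end were SLC7A11 (3.21 ± 0.739), CTH (2.02 ± 0.248), ALDH1L2 (0.684 ± 0.0883) and STC2 (0.292 ± 0.114). ALDH1L2 overlaps WASHC4, which had 458% of its counts and fell by 0.52 ± 0.086 against NTC, opposite to ALDH1L2. In all, 17 of the 34 genes overlap a gene on the other strand, and for 8 of them such a gene had at least 10% of their counts (ATF5, DDIT3, DDIT4, MTHFD2, ALDH1L2, PYCR1, SLC1A5 and CEBPB). Overlap was taken from the start and end of whole genes and not from exons. The values of these 8 are uncertain where exons overlap and strands were counted together.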

How the data were processed

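RNA-seq was performed on polyA RNA of 9 U-2 OS libraries (NTC, crXCR1 and crSUGP1, 3 each). The deposited values are raw counts, not normalized, which the authors made with SeqMonk from read pairs falling in exons. The submitters' processing notes name GRCh38 as the build and STAR 2.7.9a, cutadapt 2.4, Trim Galore 0.6.7, FastQC 0.11.5, R 4.1.0 and DESeq2 1.32.0 as tools. For the counting, the strand setting is not given in the sources used here. Opposite-strand genes may therefore share reads where their exons overlap, which was not checked.

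Of 38179 entries, 33 repeats (2 identical, 31 at 0 counts) were dropped. Genes were tested if their log2 CPM exceeded -2 in 1 library or more (21071 genes), scaled by TMM and fitted with edgeR 4.0.16 (quasi-likelihood) in R 4.3.3 over all 9 libraries, with guide as the sole term (6 residual degrees of freedom). Experiments were compared in a fit of guide and experiment. p-values were adjusted over all tested genes (Benjamini-Hochberg), and SE is the log2 fold change divided by the root of F. DESeq2 1.42.0 was the alternative. Exon lengths came from GENCODE, promoters from RefSeq (GRCh38.p14).

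The members, all lists and the contrast of experiment 3 were chosen with earlier results of these data known. All members are named. Library values are given for members called by edgeR, with or without the block, or DESeq2, for ATF4, the 3 most abundant per length and those nearest the median. Of other lists, called genes or those of smallest p against NTC are named. Some genes of these lists are not reported here. PSAT1, PSPH, ASNS, ATF5 and SLC38A2 were added after their values were seen, as were OSGIN1 and the genes of the opposite strand.

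The study's methods describe independent experiments, which the replicate numbers stand for. Deviations from group means over 16793 genes correlated at 0.483 to 0.893 between same-numbered libraries (9 pairs) and -0.843 to 0.642 between others (18 pairs), so blocked values are given where they change a call. Simulated counts for crSUGP1 against NTC (21071 genes) held 100 genes with a true log2 fold change of 0.6 and 100 with 1. The fit without the block found 59% and 91% of them. The blocked fit was given a separate simulated set, with 20671 unchanged genes instead of 20871, and found 94% and 100%. All changed genes had a mean above 1 CPM. Apart from the planted changes, libraries were drawn independently around 1 mean per gene, without the spread that libraries of an experiment share in the data. These shares therefore do not measure what the fits find in these data. As the simulated sets differ, they do not measure what the block adds either. Replicates differed by more than sampling noise. Each member had at least 78 counts in every library. Errors of low genes are wider, and reads without molecular identifiers are not independent molecules.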

Additional observations from a re-analysis of the deposited data

How the results depend on the processing

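PHGDH kept its direction between crSUGP1 and either control under every alternative run, and its call under all but 2, the fits without experiment 1 and without experiment 2. The count of members called against NTC was 1, and became 3 with DESeq2, 2 with library totals as the scale (SESN2 added), 5 with the replicate block, 5 with DESeq2 and the replicate block, 0 without experiment 1, 0 without experiment 2 and 6 without experiment 3. It was 1 to 2 without single libraries, the 2 being without crSUGP1 replicate 3 (SESN2 added). The calls over all genes moved too, from 165 to 243 with DESeq2, 166 with library totals, 601 with the block, 365 with DESeq2 and the block, 2 and 2 without experiments 1 and 2, and 413 without experiment 3. Against crXCR1 it was 1, and became 2 with DESeq2, 4 with the replicate block, 4 with DESeq2 and the block, 0 and 0 without experiments 1 and 2, 6 without experiment 3, and 1 to 1 without single libraries, while all genes went from 163 to 271, 821, 485, 1 and 2, and 484 in that order. The count between crXCR1 and NTC was 0 in every fit. For experiment 3 against experiments 1 and 2 it was 6, and became 3 with library totals, 3 without experiment 1 and 26 on adjusted p alone, with 3 to 7 without single libraries (3 without crSUGP1 replicate 3). There the calls over all genes were 2231, then 2460 with library totals, 1968 without experiment 1 and 2052 to 2358 without single libraries (2231 without crSUGP1 replicate 3). On adjusted p alone 22.9% of all genes were higher and 23.2% lower. The median of the members was 0.132 against NTC without experiment 2. Without single libraries it was 0.107 to 0.283 against NTC (0.107 without NTC replicate 3), 0.148 to 0.322 against crXCR1 (0.322 without crSUGP1 replicate 3) and -0.091 to 0.046 for crXCR1 against NTC. Other scalings moved the median of all genes by at most 0.059. No member reversed direction where called. Why the counts moved was not tested. STC2 at 78 counts limits what depth can show for the lowest member, and 1 library per guide and experiment limits every count here.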
